A study of Caenorhabditis elegans with 2 samples.

Results

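The 261 genes annotated as microRNA (miRNA) genes in the Ensembl annotation of Caenorhabditis elegans, of 46890 nuclear genes in all, were examined for intervals of F57C9.4 chromatin immunoprecipitation with sequencing (ChIP-seq). Each gene or precursor counted once, with its mature products merged, and membership used annotation only. For each gene the best-ranked interval was taken whose summit lay within 500 bp of the annotated start. The study held a single group of whole young adult worms, without another condition, as 2 biological replicates that the labels number 5 and 6. The worms were of strain OP550, genotype unc-119(tm4063) III; wgIs550, and carried a stable transgene for F57C9.4 fused at the C terminus to GFP-FLAG. Both sexes were pooled and collected 66 h after synchronisation from starved L1 larvae. Sonicated chromatin was immunoprecipitated through the GFP moiety, and the labels name a control experiment only as possible. The labels do not name the promoter of the transgene or the state of the native F57C9.4 locus, so the lists describe a tagged protein in whole animals, not in one cell type.

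miRNAs are short RNAs that repress target messenger RNAs. Most are cut from longer primary transcripts of RNA polymerase II, first in the nucleus by the Drosha and Pasha complex into a hairpin precursor and then in the cytoplasm by Dicer, and one strand is loaded into an Argonaute protein. The seed, which comprises bases 2 to 8 of the mature RNA, largely decides which targets are recognised, so miRNAs with the same seed form a family. In worms the first known miRNAs, lin-4 and let-7, time larval development. The annotated start of nearly every miRNA gene is the 5′ end of the hairpin, not the start of the primary transcript, and distances here refer to that annotated start.

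The mature RNAs below belong to the genes on which the results turn, and are shown so that the families named later can be recognised by eye. They were read from the RefSeq genome of assembly WBcel235, the same assembly as build ce11 of the lists, at the annotated mature positions, 5′ to 3′, with the seed in capitals. The first 6 share a seed and form the mir-51 family.
mir-51: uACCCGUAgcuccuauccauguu
mir-52: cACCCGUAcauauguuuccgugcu
mir-53: cACCCGUAcauuuguuuccgugcu
mir-54: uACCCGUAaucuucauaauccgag
mir-55: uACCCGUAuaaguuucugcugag
mir-56: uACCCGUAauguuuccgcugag
mir-253, upstream arm: cUUUUCACacaccucacuaaca
mir-253, downstream arm: uUAGUAGGcguugugggaaggg
mir-4936: uGCUUUGUggcuuugcuggua
mir-58.1: uGAGAUCGuucaguacggcaau
mir-80, of the mir-58 family: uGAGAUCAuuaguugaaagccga
mir-35: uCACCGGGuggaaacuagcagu
mir-45: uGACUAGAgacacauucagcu
let-7: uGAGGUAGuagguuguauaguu
lin-4: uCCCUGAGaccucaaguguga

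Genomic sequence around 4 summits is shown next, as 201 bp centred on the best pooled summit and read on the strand of the gene. At mir-51 and mir-4936 the capitals mark a match to GTTCGANNC, the core of the internal B box of tRNA genes. At mir-54 they mark a match to CTCCGCCC, a motif known upstream of worm miRNA genes, and at mir-58.1 they mark the annotated mature products.
mir-51, chrIV:11026027-11026227, minus strand: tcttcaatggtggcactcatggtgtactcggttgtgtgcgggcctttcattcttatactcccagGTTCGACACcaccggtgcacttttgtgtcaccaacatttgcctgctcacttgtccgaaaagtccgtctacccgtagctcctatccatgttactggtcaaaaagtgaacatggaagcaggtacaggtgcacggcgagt
mir-4936, chrIII:3249132-3249332, plus strand: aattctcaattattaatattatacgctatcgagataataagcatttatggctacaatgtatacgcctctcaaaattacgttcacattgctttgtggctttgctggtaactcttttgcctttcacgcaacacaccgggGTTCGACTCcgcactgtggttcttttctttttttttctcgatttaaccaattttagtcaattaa
mir-54, chrX:13145249-13145449, minus strand: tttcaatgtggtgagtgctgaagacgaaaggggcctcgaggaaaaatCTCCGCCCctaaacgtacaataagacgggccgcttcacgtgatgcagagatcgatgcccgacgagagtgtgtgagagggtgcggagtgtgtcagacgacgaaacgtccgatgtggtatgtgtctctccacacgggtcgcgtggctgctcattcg
mir-58.1, chrIV:3233162-3233362, plus strand: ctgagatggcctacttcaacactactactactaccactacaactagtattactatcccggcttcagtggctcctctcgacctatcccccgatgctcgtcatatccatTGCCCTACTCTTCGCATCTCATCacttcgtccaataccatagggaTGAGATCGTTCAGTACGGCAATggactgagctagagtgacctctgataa

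The authors' list filtered by irreproducible discovery rate (IDR), a measure of how well peak ranks match between replicates, held 360 peaks. Of these, 6 had their summit within 500 bp of an miRNA start, at 5 genes, mir-253, mir-51, mir-52, mir-4936 and mir-58.1. These 5 were 1.92% of the 261 miRNA genes (Wilson 95% interval 0.821% to 4.41%), against 0.827% of all genes. That interval reached down to the background share and covers counting error over genes only. In the pooled list of 30000 intervals, 125 miRNA genes (47.9%, interval 41.9% to 53.9%) had a summit in the window, against 25.6% of all genes. The background of all genes includes 15363 piRNA genes, at 11.8% in the pooled list and 0.0651% in the IDR list. Pooled shares were 29.5% of protein-coding genes, 38.1% of genes annotated as ncRNA, 52.7% of snRNA, 61.8% of snoRNA and 74.8% of tRNA genes. No test of enrichment was run, and with 1 group the design holds no comparison between conditions. Ranks are by the signal value that the authors' peak caller gave, on a scale that differs between lists. Signal values are therefore compared only within a list, whereas the ranks of a gene in lists of equal length are set side by side. Depth is unknown, since read counts were not analysed here.

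mir-253 held the highest-ranked interval of any miRNA gene in each list. Its hairpin lies at chrV:5780510-5780616 on the minus strand, in an intron of the protein-coding gene F44E7.5 on the same strand. The best interval ranked 2 in the pooled list, with a signal value of 459 and a q-value of 0.00493, 2 in replicate 5 (signal 296) and 2 in replicate 6 (signal 164). Both replicates thus placed it next to the top, with summits 298 bp and 288 bp upstream of the hairpin. That summit lay in an exon of F44E7.5, 13 bp from the start of that gene and 40 bp from that of F44E7.13, a non-coding RNA, so the interval was nearer to other starts than to mir-253. A second IDR peak lay on the other side of the hairpin, 434 bp downstream of its start. It ranked 304 in the pooled list (signal 70.2), 249 in replicate 5 (signal 49.9) and 1782 in replicate 6 (signal 22.1), and was 740 bp from the start of F44E7.5. Of all genes, 7 had more than 1 IDR summit in their window.

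At mir-51, of a family required in embryos, the interval was centred on the hairpin end. The gene lies at chrIV:11026013-11026112 on the minus strand, outside protein-coding genes and 1679 bp across with its cluster partner mir-53. Its interval ranked 68 in the pooled list (signal 108, q = 0.00493), 49 in replicate 5 (signal 71.4) and 115 in replicate 6 (signal 41.7). The summits of the replicates were 1 bp upstream and 19 bp downstream of the start, and the pooled summit was 15 bp upstream of it, so positions differed by far less than an interval width (median 404 bp in the pooled list). The nearest start of another gene was that of the non-coding RNA F36H1.17, 92 bp away, and the nearest protein-coding start, that of hrg-5, was 3301 bp away. The B box core in the sequence printed above lay at chrIV:11026155-11026163, upstream of the hairpin on its own strand.

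The solitary gene mir-52, of the same seed family, had its interval on the other side of the hairpin. It lies at chrIV:14034008-14034107 on the plus strand, in a region without a protein-coding start closer than 9527 bp to the summit. The interval ranked 163 in the pooled list (signal 84.4, q = 0.0215), 209 in replicate 5 (signal 52.1) and 64 in replicate 6 (signal 49.9). Pooled and replicate 6 summits were 245 bp and 258 bp downstream of the start, past the hairpin, whereas that of replicate 5 was 68 bp downstream, inside it. The start of an annotated non-coding RNA on the opposite strand was nearer to the pooled summit, at 163 bp.

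mir-4936 and mir-58.1 had the pooled summit inside the precursor itself, with less even support from the replicates. mir-4936 is a solitary gene at chrIII:3249151-3249260 on the plus strand, and its interval ranked 264 in the pooled list (signal 72.5, q = 0.0171), 303 in replicate 5 (signal 47.3) and 902 in replicate 6 (signal 25.5). The summit was 81 bp downstream of its start in the pooled list and in replicate 5, and 104 bp downstream in replicate 6. The nearest protein-coding start was that of nduf-9 on the opposite strand, 657 bp from the summit. mir-58.1, also known as mir-58a and a member of the family named after fly bantam, lies at chrIV:3233254-3233350 in an intron of phkb-1 on the same strand. Its interval ranked 353 in the pooled list (signal 67.1, q = 0.0128), 802 in replicate 5 (signal 37.7) and 359 in replicate 6 (signal 31.5). The summit was 8 bp downstream of the start of mir-58.1 in the pooled list and in replicate 5. In replicate 6 it was 13 bp upstream, outside the precursor. The pooled summit also lay in an exon of the non-coding RNA Y67D8A.6, whose start was 100 bp away. By the 360 best intervals of a single replicate, mir-4936 was absent in replicate 6 and mir-58.1 was absent in replicate 5.

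**Figure D1:**
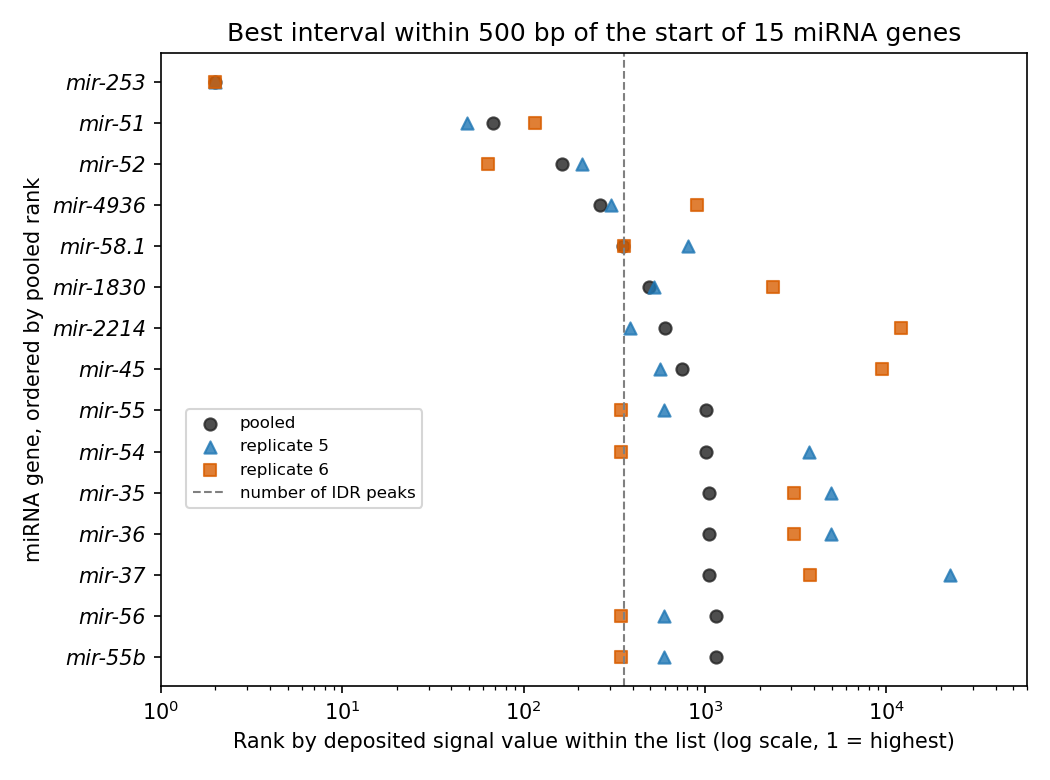
Rank by deposited signal value of the best interval at each of the 15 miRNA genes with the best pooled rank (rows) in the pooled list and each replicate list, on a log axis where 1 is the highest. Symbols left of the dashed line at 360 are among as many best intervals as there are IDR peaks, and mir-253, mir-51 and mir-52 lie left of it in all 3 lists.

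Between the replicates, the best 360 intervals reached 4 miRNA genes in replicate 5 and 8 in replicate 6. These counts compare with 0.772% and 0.755% of all genes at the same depth, and were 1.53% and 3.07% of the miRNA genes. The 3 genes found in both were mir-253, mir-51 and mir-52, against 0.354% of all genes. In replicate 6, 4 of the 8 genes were mir-54, mir-55, mir-55b and mir-56, which share 1 interval, so that replicate 6 held 5 distinct intervals. Over the whole lists 73 miRNA genes had a summit in both replicates, 49 in replicate 5 only, and 40 in replicate 6 only. Another 4 had one in the pooled list only, and 95 had none in any list. At 57 genes the best intervals of the replicates overlapped. Over the 51 distinct pairs of them, signal values correlated with Spearman's rho of 0.35 and Pearson's r of 0.75 on the log2 scale. These are descriptions over intervals of the same 2 libraries, and the pair at mir-253 lay far above the others.

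Further down the pooled list, the share of miRNA genes stayed above that of all genes at each depth examined. Among the best 3600 pooled intervals, 32 miRNA genes (12.3%) had a summit, against 4.68% of all genes. At the best 180, 720 and 1800 intervals the shares of miRNA genes were 1.15%, 2.68% and 6.13%, against 0.446%, 1.47% and 2.88% of all genes. Within the pooled list the median best rank was 9299.0 at miRNA genes with a summit, against 12849 at all genes with one. Medians were better at snoRNA (4072.5), tRNA (3708.0) and snRNA genes (5677.5), and worse at piRNA genes (15957). Of genes with a pooled summit, 5 of 125 miRNA genes (4.0%) had an IDR summit, close to the 3.23% of all genes and the 2.83% of protein-coding genes, and below the 21.5% of snoRNA, 19.1% of snRNA and 9.17% of tRNA genes. The excess of miRNA genes over all genes was thus seen in how many had any interval. Among genes with an interval, the median rank of miRNA genes was also better than that of all genes. The share of these with an IDR summit was close to that of all genes, but rested on 5 miRNA genes. Genes of a cluster share intervals, and the 125 genes rested on 107 distinct ones.

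**Figure D2:**
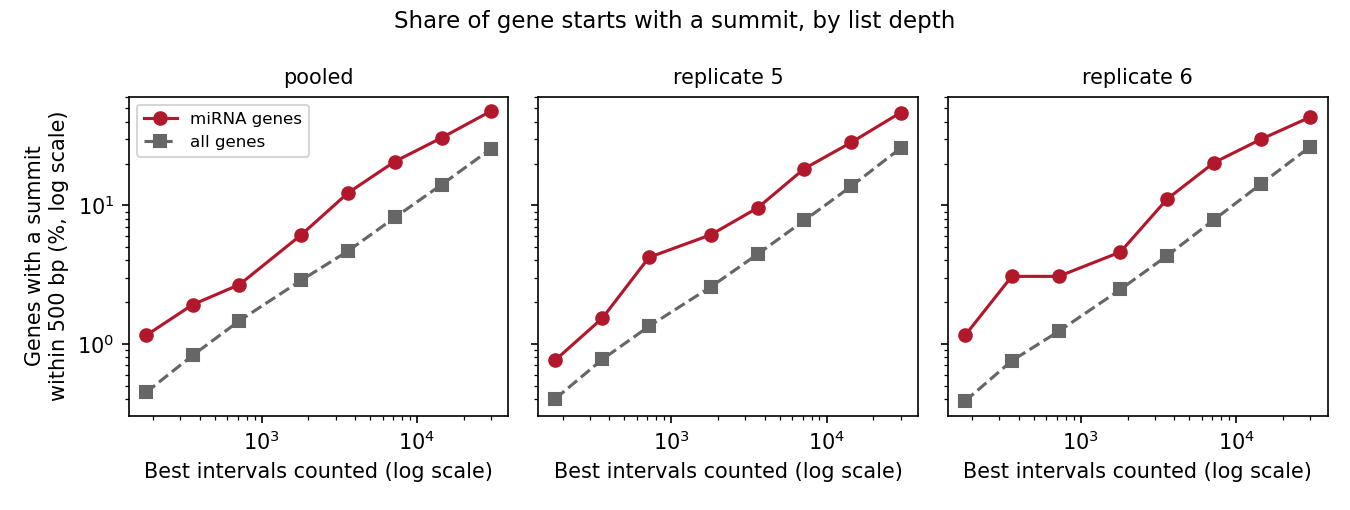
Percent of the 261 miRNA genes (circles) and of all 46890 genes (squares) with a summit within 500 bp of the start, against the number of best intervals counted in the pooled list and in each replicate list, both axes log. The line of miRNA genes lies above that of all genes in all 3 lists, at 47.9% against 25.6% for the full pooled list.

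Just below the IDR list came 3 genes with better ranks in replicate 5 than in replicate 6. The last IDR peak had a pooled signal of 66.8 and the first interval outside had 66.7. mir-58.1 at rank 353 (signal 67.1) was the last miRNA gene inside, and mir-1830 at rank 493 (signal 61.6), in an intron of paic-1, was the first outside. mir-1830 ranked 523 in replicate 5 and 2381 in replicate 6, mir-2214 in an intron of B0361.11 ranked 601 (pooled), 388 (replicate 5) and 12089 (replicate 6), and mir-45 ranked 748, 562 and 9479 in the same order. All 3 therefore ranked far better in replicate 5 than in replicate 6. The next genes by pooled rank lie at the mir-54 and mir-35 clusters, described below with their families, and mir-4920 in an intron of sph-1 came after them at rank 1186, with its summit 53 bp from the start of sph-1.

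Read by family, the mir-51 family held 2 of the 5 genes with an IDR summit, and all 6 of its genes had a pooled summit. Their pooled ranks were 68 (mir-51), 163 (mir-52), 1009 (mir-54 and mir-55), 1156 (mir-56) and 8934 (mir-53). The family lies at 3 places, the mir-51 and mir-53 pair, mir-52, and the mir-54, mir-55 and mir-56 cluster, which spans 404 bp on chromosome X in an intron of F09A5.3 on the opposite strand. At that cluster the summit of replicate 6 lay 176 bp upstream of mir-54 and ranked 344 (signal 31.7), so all 3 genes were within its best 360. In replicate 5 the matching summit, 230 bp upstream of mir-54, ranked 3737 (signal 27.3), and the best interval near mir-55 and mir-56 was another one, 312 bp downstream of the start of mir-56, at rank 594 (signal 40.5). Pooled summits lay at both ends of the cluster, 255 bp upstream of mir-54 at rank 1009 (signal 51.9) and 354 bp downstream of the start of mir-56 at rank 1156 (signal 50.3). mir-53 was the weakest member in each list, at rank 9543 in replicate 5 and 23103 in replicate 6. By the best 360 intervals the family therefore counted 5 genes in replicate 6 and 2 in replicate 5.

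The mir-35 family, maternally supplied and needed in embryos, had intervals at all 8 genes but none in the IDR list. Its cluster of 7, mir-35 to mir-41, spans 797 bp on chromosome II in an intron of Y62F5A.9 on the opposite strand, and mir-42 lies apart with mir-43 and mir-44. The best pooled interval, shared by mir-35, mir-36 and mir-37, ranked 1059 (signal 51.4), with its summit 266 bp upstream of mir-35. The replicates ranked the intervals at mir-35 at 4929 and 3093, below the pooled rank. The median over the 8 genes was 2956.5 and the lowest pooled rank was 4690, against 9299.0 for the median of all miRNA genes with a pooled summit. Since the 7 genes are covered by 3 distinct intervals, these are not 8 separate observations.

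In the mir-58 family, known for its abundance in the worm, all 7 genes had a pooled summit, but with wide ranks. mir-58.1 ranked 353, mir-80 ranked 2072, and the pair mir-58.2 and mir-58c ranked 11492. mir-81 followed at 13327, mir-2209.1 at 20486 and mir-82 at 27596. Its members thus ran from inside the IDR list to near the end of the pooled list, where q-values reached 0.906. By seed, mir-58.1 (GAGAUCG) stands apart from the 6 others (GAGAUCA), and it was placed with them by name.

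By comparison, the let-7 and mir-64 families had a pooled summit at fewer of their genes. Of the 5 let-7 family genes, which time the larval to adult transition, 2 had a pooled summit, mir-48 at rank 2979 (signal 40.6, 1 bp upstream of its start) and mir-84 at rank 9958 (signal 29.4). let-7 had an interval in replicate 6 only, at rank 16679, 431 bp upstream of the annotated start of its primary transcript, and mir-241 had one in replicate 5 only, at rank 7433. mir-795 had none. Of the 5 mir-64 family genes, mir-229 at the head of the cluster ranked 2264 in the pooled list (signal 43.2), with 2367 in replicate 5 and 4244 in replicate 6. The genes mir-64, mir-65, mir-66 and mir-63 had no pooled summit. In replicate 6, mir-64, mir-65 and mir-66 had an interval at rank 17172, and mir-64 also had one in replicate 5, at rank 8746.

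**Figure D3:**
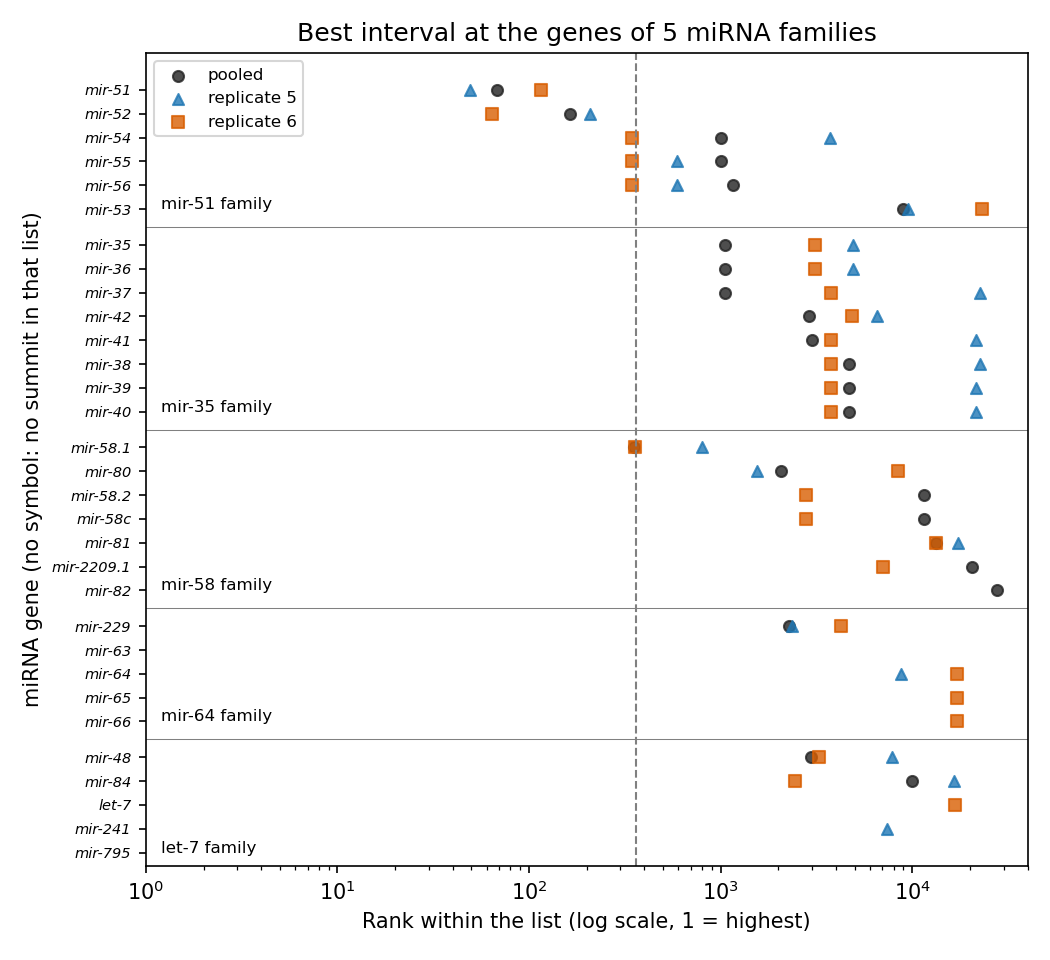
Rank of the best interval at each gene of 5 miRNA families (rows, grouped by family) in the pooled list and each replicate list, on a log axis where 1 is the highest, with the dashed line at 360. A gene without a symbol for a list had no summit within 500 bp in it, and the mir-51 family holds the best ranks, 68 and 163 in the pooled list.

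Other miRNA genes of known function were outside the IDR list, and their ranks ranged widely. lin-4, which represses lin-14 to end the first larval stage, ranked 4389 in the pooled list (signal 36.8), 9080 in replicate 5 and 1304 in replicate 6. mir-71, known for its effect on life span, ranked 3285 (signal 39.6), 9529 and 2447 in the same lists. mir-124, of ciliated sensory neurons, and mir-34, of stress responses, ranked 13157 and 13780 in the pooled list, and neither had a summit in replicate 6. mir-228, of glia, had an interval in replicate 6 only, at rank 24010. lsy-6, which sets left and right taste neuron identity, and mir-1, of muscle, had no summit in any list. The pooled ranks of mir-71 and lin-4 were thus better than the miRNA median of 9299.0, and those of mir-124 and mir-34 were worse. A missing interval at this list length means only that none of the 30000 intervals had its summit in the window.

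By genomic setting, solitary miRNA genes had an interval least often of 3 classes. Clustered genes had one most often when clusters were assigned before introns, as here. A gene was called clustered when another miRNA gene lay on its strand within 2000 bp, intronic when it was not clustered and lay wholly within an intron of a protein-coding gene, and solitary otherwise, with 8 genes that overlapped a protein-coding exon kept apart. A pooled summit was present at 40 of 61 clustered genes (65.6%, Wilson 95% interval 53.0% to 76.3%), at 43 of 81 intronic genes (53.1%, 42.3% to 63.6%) and at 36 of 111 solitary genes (32.4%, 24.4% to 41.6%). All 3 shares were above the 25.6% of all genes, piRNA genes included. The interval of solitary genes included that share and the 29.5% of protein-coding genes. The 40 clustered genes rested on 25 distinct pooled intervals, so they are not separate observations and their Wilson interval is too narrow. In the order clustered, intronic and solitary, the shares were 57.4%, 55.6% and 32.4% in replicate 5, and 62.3%, 42.0% and 32.4% in replicate 6. Solitary genes were lowest in each replicate, whereas clustered and intronic genes were close to each other in replicate 5. Counted by cluster, 19 of 22 clusters (86.4%) had a pooled summit at 1 gene or more, a share that a wider target also raises. Of the 8 exonic genes, let-7 among them, 6 (75.0%) had a pooled summit, a share above that of clustered genes but from few genes.

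Among the 3600 best pooled intervals the classes kept that order, with 24.6% of clustered, 11.1% of intronic and 5.41% of solitary genes. The last share was close to the 4.68% of all genes. In a split by name number described below, the order was not kept among genes numbered 1000 and over. Median pooled ranks were 4690.0 for clustered, 13157 for intronic and 9980.5 for solitary genes with a summit. In the replicates the medians were 10042 and 4844.0 for clustered genes, 9529.0 and 9065.0 for intronic genes, and 11570 and 10869 for solitary genes, in replicate 5 and replicate 6. The better median of clustered genes was thus seen in replicate 6 and in the pooled list, not in replicate 5. Genes of a cluster share intervals, so the shares and medians of clustered genes do not rest on separate observations. Their pooled median of 4690.0 is the rank of an interval shared by mir-38, mir-39 and mir-40. Intronic genes had a worse median than solitary genes in the pooled list and a better one in each replicate. The 5 genes with an IDR summit were spread over the classes, with 1 clustered, 2 intronic and 2 solitary.

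Strand and overlap of settings split the intronic genes further. Of 61 intronic genes on the strand of their host, 36 (59.0%) had a pooled summit and 2 an IDR summit, and of 20 on the opposite strand only, 7 (35.0%) had a pooled summit and 0 an IDR summit. The 19 genes that were clustered and also lay in an intron, the mir-35 and mir-54 clusters among them, had a pooled summit in 16 cases (84.2%) and were among the best 3600 in 8. These genes lie in only 6 clusters and share intervals, so they are not separate observations. Several properties moved with the class. The median GC content of the 1001 bp around the start was 40.5% for clustered, 38.7% for intronic and 35.7% for solitary genes. A protein-coding start lay within 500 bp at 6.56%, 19.8% and 14.4% of genes, and chromosome X held 42.6%, 16.0% and 30.6% of them, in the same order. Genes numbered under 1000 in their names, a split described below, made up 67.2%, 35.8% and 56.8%. The part of these properties in the difference between classes was not tested. Over the 219 miRNA genes with no protein-coding, tRNA, snoRNA or snRNA start within 500 bp, 98 (44.7%) had a pooled summit and 4 an IDR summit, against 27 of 42 (64.3%) and 1 where there was such a start.

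**Figure D4:**
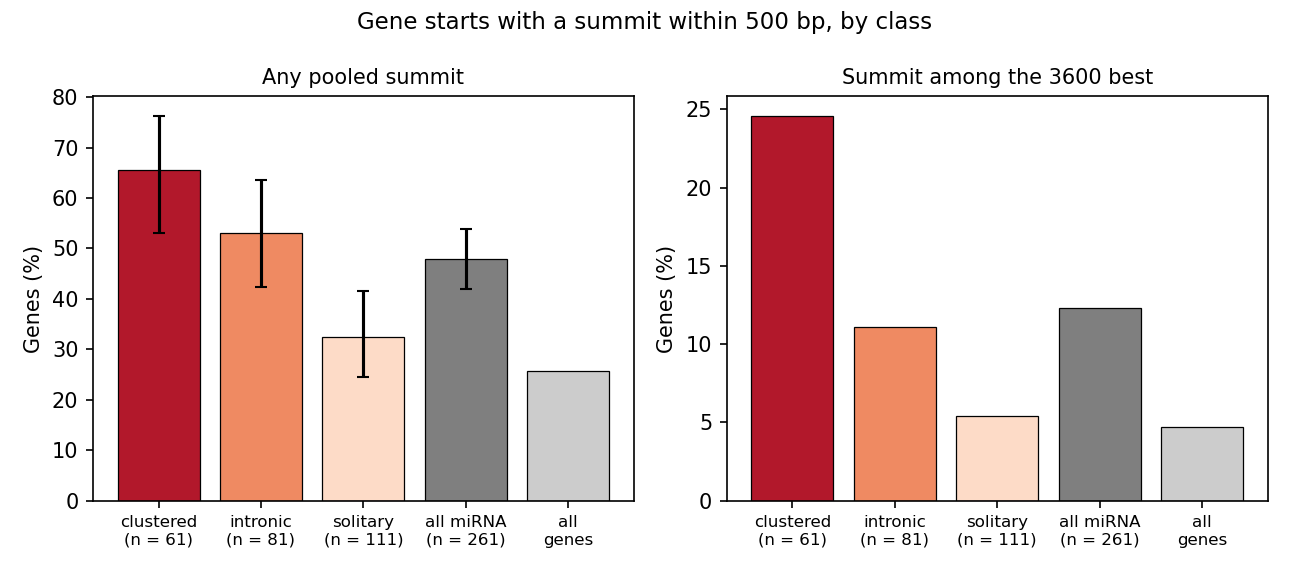
Percent of clustered, intronic and solitary miRNA genes, of all 261 miRNA genes and of all 46890 genes with any pooled summit (left) and with a summit among the 3600 best pooled intervals (right) within 500 bp of the start; the error bars are Wilson 95% intervals. Clustered genes stand highest in both panels, at 65.6% and 24.6%, and solitary genes lowest of the miRNA classes, at 32.4% and 5.41%.

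By chromosome, 3 of the 5 genes with an IDR summit were on IV, 1 on III and 1 on V. None of the 74 miRNA genes on X, the chromosome with most of them, had an IDR summit, with a Wilson 95% interval that reached 4.93%, against 1.16% of all 6022 genes on X. A pooled summit was present at 30 of them (40.5%), close to the 37.6% of all genes on X. In replicate 6, 4 of them, mir-54, mir-55, mir-55b and mir-56 with their shared interval, were within the best 360, and in replicate 5 none was.

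Around the annotated starts, summits at miRNA genes showed no preferred side. Of the 125 best pooled summits, 63 were upstream and 62 at or downstream of the start, with a median distance of 255 bp, and 16 lay inside the annotated gene. In bins of 200 bp within 600 bp of the start, 8.81% to 13.8% of miRNA genes had a pooled summit, against 5.61% to 8.01% of protein-coding genes. Farther out, up to 2000 bp, the bins held 4.60% to 9.20% of miRNA genes. The raised share was therefore local to the hairpin and was broad. More than 1 pooled summit in the window was found at 38 miRNA genes (14.6%), against 3.65% of all genes. GC content within 100 bp of the 5 best IDR summits at miRNA genes ran from 35.8% to 53.2% (median 48.3%). The 102 other best summits there had a median of 41.3%, against 43.8% over all IDR summits and 40.3% over all pooled summits.

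**Figure D5:**
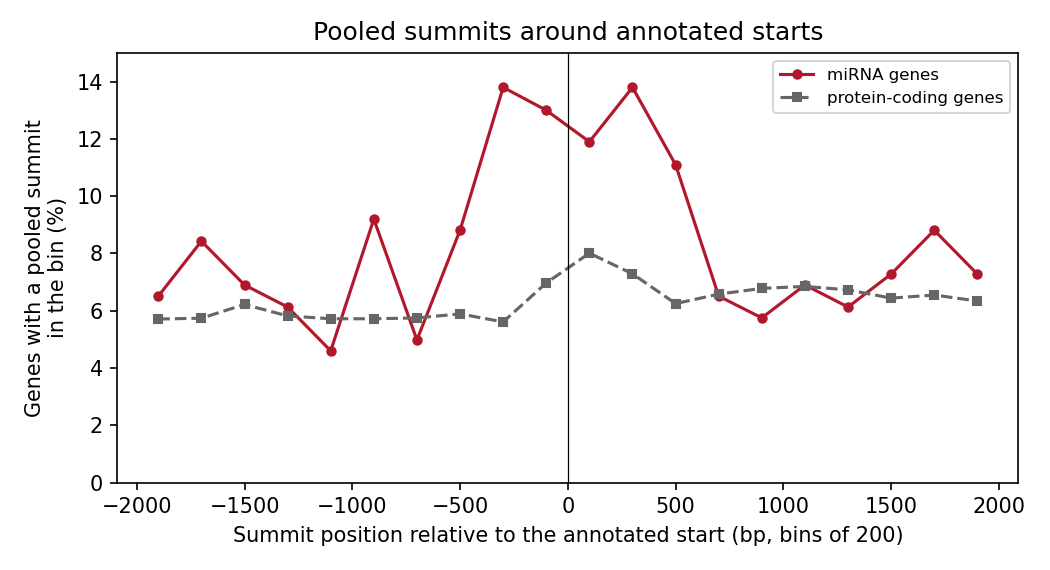
Percent of miRNA genes (circles) and of protein-coding genes (squares) with a pooled summit in each 200 bp bin from 2000 bp upstream to 2000 bp downstream of the annotated start. miRNA genes reach 13.8% in the bins from 400 to 201 bp upstream and from 200 to 399 bp downstream.

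The motif CTCCGCCC, searched on both strands, was more frequent near miRNA starts than near other starts. It occurred within 500 bp of 32 of 261 miRNA starts (12.3%), against 3.89% of all genes and 4.28% of protein-coding genes. It was present at 22 of 125 miRNA genes with a pooled summit (17.6%) and at 10 of 136 without one (7.35%), and at 19.7% of clustered, 13.6% of intronic and 7.21% of solitary genes. Neighbouring genes can share a match and an interval, so these are not separate observations. For example, the same match was counted for mir-35, mir-36, mir-37 and mir-38, and another for both mir-54 and mir-55. In the shorter window of 100 bp around summits it was found at 5 of the 107 best miRNA summits (4.67%), against 1.39% of the 360 IDR summits and 1.08% of all pooled summits. At mir-54 it lay 49 bp from the pooled summit, as printed above, and at mir-1830 it lay 82 bp from it. lin-4, with a pooled interval at rank 4389, and let-7, with none, also had a match near their starts.

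The other motif, GTTCGANNC, occurred near 19 miRNA starts (7.28%), against 6.52% of protein-coding genes, 76.3% of tRNA genes and 7.98% of all genes, tRNA genes included. Within 100 bp of summits it was found at 4.67% of the best miRNA summits, against 10.6% of IDR summits and 2.55% of all pooled summits. Matches lay 32 bp from the summit at mir-51 and 41 bp from it at mir-4936, and neither gene had an annotated tRNA within 1000 bp of the summit. A match says only that these letters are present, and none of the sequences printed held matches to both motifs.

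Genes of the miRNA pathway were counted for comparison, from a list of 30 biogenesis factors, effectors and heterochronic genes, of which 29 were found in the annotation under their listed name. An IDR summit lay in the window of 1 of them, vig-1, the worm counterpart of a protein of the fly RNA-induced silencing complex, against 0.836% of all protein-coding genes. Its interval ranked 103 in the pooled list (signal 95.7), 194 in replicate 5 and 107 in replicate 6, with the summit 393 bp upstream of vig-1 and 89 bp from the piRNA gene 21ur-13751. lin-66, a heterochronic gene upstream of lin-28, was next at rank 405 (signal 64.4), with 983 in replicate 5 and 895 in replicate 6. In all, 11 of the 29 had a pooled summit, against 29.5% of protein-coding genes, with rde-4, which binds double-stranded RNA with Dicer, at rank 2740. drsh-1, the worm Drosha gene, ranked 20653, and the Dicer gene dcr-1, the Pasha gene pash-1 and the Argonaute gene alg-2 had no summit in any list.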

How the data were processed

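The data are ChIP-seq interval lists in narrowPeak format on build ce11: 1 list for each of 2 replicates, 1 pooled list and 1 list after IDR. Per the text deposited with the files, lists before IDR were made from aligned reads (of 1 replicate or both pooled) plus 1 further file of unstated kind. Aligner, caller and IDR threshold: not given in the sources used here. Intervals were ranked within a list by the signal value that the authors deposited, with ties by file order, and its median was 25.8 (pooled), 18.5 (replicate 5) and 12.3 (replicate 6). A −log10 q-value, as deposited, was converted to a q-value and used only to describe intervals. The deposited summit offset, another unit, gave the summit position. Each list before IDR held 30000 intervals, and pooled q-values reached 0.906, so these lists include background on purpose. All 360 IDR peaks were the 360 best pooled intervals. Lists on ce10 were not used, and no value column lacked a sample.

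Genes and starts came from Ensembl release 115 for WBcel235, and all 261 miRNA genes matched a RefSeq gene. Sequences were read from the RefSeq genome of WBcel235. A summit counted when it lay within 500 bp of a start. Python 3.11.15, numpy 2.4.6, scipy 1.17.1 and matplotlib 3.10.9 were used. No test was run: shares have Wilson 95% intervals, which cover counting error over genes only, and read depth is unknown. The window and cluster rules were tested on simulated data. Named were all miRNA genes with an IDR summit, the 15 best by pooled rank, the 5 best in each replicate, and lin-4, let-7, lsy-6, mir-1, mir-34, mir-71, mir-124, mir-228 and 5 families. mir-4920 was named after its values were seen, and the pathway genes come from a list. Members, lists and motifs were chosen with earlier results of these data known. Alternatives covered window, list depth, replicate, cluster gap, class order and start definition.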

Additional observations from a re-analysis of the deposited data

How the results depend on the processing

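The count of 5 miRNA genes with an IDR summit became 9 with a window of 2000 bp, 2 on the upstream side only, 3 with the stronger 180 peaks, and 16 and 32 with 5 and 10 times as many pooled intervals. With the best intervals of a single replicate it ranged from 4 to 8. The count of 125 with a pooled summit became 71 with a window of 250 bp and 211 with one of 2000 bp. With introns assigned before clusters, a planned setting, the pooled shares were 57.1% of clustered, 59.0% of intronic and 32.4% of solitary genes. Clustered and intronic genes thus changed places, and solitary genes stayed lowest. With a window of 1000 bp, chosen after seeing the data, the shares were 82.0% of clustered, 70.4% of intronic and 44.1% of solitary genes, in the order of the main setting. In a single replicate, also chosen after seeing the data, the share of intronic genes ranged from 42.0% to 55.6%. IDR counts by class ranged from 1 to 4 for clustered, 1 to 3 for intronic and 1 to 2 for solitary genes in single replicates, and that of clustered genes was 0 with cluster gaps of 500 or 1000 bp, since mir-51 and mir-53 then separate. The 3 genes among the best of both replicates became 6 and 8 with 2 and 5 times as many intervals. Also chosen after seeing the data, a window of 1000 bp gave 2 pathway genes and 32 starts with GTTCGANNC, and single replicates gave 2 to 5 genes of the mir-51 family. The median rank of 9299.0 stayed between 8289.0 and 10002 under the 4 settings run. Of 55 settings run over the 15 named genes, 49 kept the side of the IDR limit, 2 left it (mir-4936 in replicate 6 and mir-58.1 in replicate 5) and 4 entered it (mir-54, mir-55, mir-55b and mir-56 in replicate 6). Settings that left a gene without an interval are not among these. In the pooled list mir-253, mir-1830, mir-35, mir-54 and mir-55 had none within 250 bp. mir-253 thus had no IDR summit at that window, where 4 miRNA genes had one. The cause of these shifts was not tested. No paired analysis was possible because the samples form 1 group. Unknown depth, 2 replicates and interval widths near 404 bp limit what the ranks can resolve.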

Other observations

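Among miRNA genes, those with low numbers in their names held intervals more often. miRNA names are numbered in order of registration, so low numbers mark genes found early. The split was chosen after seeing the values, with lin-4, let-7 and lsy-6 counted among the early ones. A pooled summit was present at 78 of 137 miRNA genes numbered under 1000 (56.9%), and at 47 of 124 others (37.9%). Among the best 3600 pooled intervals the shares were 19.0% and 4.84%, the second close to the 4.68% of all genes. The same direction was seen in each class, with 80.5% and 35.0% of clustered genes, 69.0% and 44.2% of intronic genes, and 36.5% and 27.1% of solitary genes. Clustered genes share intervals, so their shares are not over separate observations. Among the best 3600, genes numbered under 1000 had shares of 36.6% (clustered), 17.2% (intronic) and 7.94% (solitary). The others had 0%, 7.69% and 2.08% in the same order, so clustered genes were not highest among them. Of the 5 genes with an IDR summit, mir-4936 was the one numbered over 1000. Annotated non-coding RNA starts within 500 bp were found at 37.2% of genes numbered under 1000 and 3.23% of the others. Median GC content of the surrounding 1001 bp was 38.1% and 36.2% in the same order. Chromosome X held 33.6% and 22.6% of the genes, but 26.8% and 75.0% of the clustered ones. The part of these properties in the difference was not tested.

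Further clusters held intervals of lower rank. mir-80 with mir-238 had a best pooled rank of 2072, mir-42 with mir-43 and mir-44 had 2904, mir-247 with mir-797 had 3675, and mir-250 with mir-61 had 4147. The cluster of 6 genes from mir-4807 to mir-4810.1 on chromosome X had a pooled summit at 1 gene, at rank 21360, and the cluster of 5 from mir-1018 to mir-4921 had a summit in none of the lists.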
